A study of Mus musculus with 8 samples.

Results

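The 55 genes described here encode enzymes and subunits that write, erase or move the marks and nucleosomes of chromatin. They comprised 15 histone methyltransferases, 8 histone demethylases, 5 histone acetyltransferases, 6 histone deacetylases, 13 remodellers, 5 enzymes of DNA methylation and 3 partners of Polycomb complexes, out of 55413 annotated mouse genes. A gene was counted as marked in a library when the summit of an m6A peak, the base with the highest immunoprecipitated signal, lay in one of its annotated exons (GENCODE M21, GRCm38). In all, 730 of the summits in the 4 peak lists fell in these genes, and 40 of the 55 genes held at least 1.

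N6-methyladenosine (m6A) is an internal methyl mark of messenger RNA, placed during transcription by a complex of the catalytic subunit METTL3 and its RNA-binding partner METTL14, mostly at the adenosine of the motif DRACH (D stands for any base but C, R for a purine and H for any base but G). The mark is known to be frequent in long internal exons and around stop codons and rare near splice junctions, where the exon junction complex limits it. Histone methyltransferases and acetyltransferases add groups to histone tails that demethylases and deacetylases take off, remodellers use ATP to shift or evict nucleosomes, TET and DNMT enzymes oxidise or add the methyl group of cytosine, and ASXL and BCOR proteins work with Polycomb-group enzymes. Several of these proteins, among them EP300, HDAC4 and TET2, are known regulators of smooth muscle genes.

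The series measured m6A by immunoprecipitation of fragmented total RNA (meRIP-seq) in primary vascular smooth muscle cells (VSMCs) from the descending aorta of adult C57BL/6J mice. Cells were transduced with a lentivirus that expressed either a nontargeting hairpin (shCTR) or 1 hairpin against Mettl14 (shMettl14), with 2 replicates of each, A and B, and an immunoprecipitated (IP) and an input library per replicate. Each IP library gave 1 peak list, and the input libraries served as the background of the peak caller. Whether A and B were separate cultures is not stated in the labels, so the p-values below measure only the spread between these samples, which may be technical. All cells carried a lentiviral hairpin, and a single hairpin against Mettl14 was profiled.

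The lists held 11158 (shCTR A), 8655 (shCTR B), 13675 (shMettl14 A) and 9256 (shMettl14 B) summits, with a median of 16, 16, 14 and 13 fragments at a summit, as recovered from the listed fold enrichment and p. Mettl14 itself had no summit in any list, so the knockdown could not be checked here. Of 6 contractile smooth muscle markers, Lmod1 had summits in all 4 lists, Myh11 in 3, and Acta2, Tagln, Cnn1 and Smtn in none. Of 3 endothelial markers, Pecam1 and Cdh5 had summits in all 4 lists and Kdr in 3, and the leukocyte markers Ptprc and Cd68 had none. A peak list records where the IP exceeded its background and not how much of a transcript is present, so a gene with no summit may be unmethylated or too weakly expressed, and the part played by other cell types was not tested.

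The sites below show the strongest marked region of the first-ranked gene of each class, as 25 bases of transcript around a DRACH motif. The motif is the one nearest to the median position of the strongest summit of each list in that region. The motif is in capitals, and its central base is the adenosine that could carry the mark. Coordinates are on GRCm38 and the sequences are those of GENCODE M21 transcripts, 5′ to 3′.
Nsd1, coding, exon 2, chr13:55213841-55213865, plus strand: catgggaagtGAACAagacagcatg
Kdm6b, coding, exon 11, chr11:69404586-69404610, minus strand: gtggacagtgGGACTgagccacagc
Crebbp, coding, exon 2, chr16:4179830-4179854, minus strand: tgaaccaaggAGACTcatcaacacc
Hdac4, 3′ UTR, exon 27, chr1:91932769-91932793, minus strand: gcttagtgagGGACAgagttggaag
Chd7, coding, exon 38, chr4:8866531-8866555, plus strand: atgccgaggaGAACCtggacaagac
Tet3, coding, exon 12, chr6:83368584-83368608, minus strand: ctggaggaggGGACAgctgaggagc
Asxl1, coding, exon 13, chr2:153400548-153400572, plus strand: atgaaaagcaAGACTgggacccatc

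The adenosine of these motifs lay 32 nt (Nsd1), 15 nt (Kdm6b), 3 nt (Crebbp), 23 nt (Hdac4), 3 nt (Chd7), 11 nt (Tet3) and 34 nt (Asxl1) from the median of the strongest summits. The middle of all summits of a region can lie elsewhere. In Asxl1 it was at -2184 nt from the stop codon and the adenosine at -1511 nt, and in Kdm6b these were at -2450 and -2082 nt. A fragment of the IP spans far more than 1 motif, so the sites are candidates read from the sequence and not mapped bases. Over all member summits, a DRACH motif lay within 50 nt in 96.3% ± 1.28 of summits in shCTR and 94.1% ± 0.214 in shMettl14 (SD, n = 2), with a median distance of 11 nt, and the same window held 1 at 87.3% of all positions of the marked member transcripts. The stricter GGACT lay within 50 nt of 19.9% ± 1.38 of member summits in shCTR and 21.6% ± 0.0738 in shMettl14, against 10.6% of the transcript positions. Over all coding genes the shares were 96.0% and 95.5% for DRACH and 22.8% and 20.9% for GGACT, so the chromatin genes held the motifs at shares close to those of other marked transcripts.

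Of the 55 genes, 38 had a summit in all 4 lists, 2 in 1 list only (Kdm4a and Bcor) and 15 in none. The share of 38 in 55 was 69.1%, beside 16.2% of the 21489 coding genes with a complete transcript model. Of those coding genes, 15980 had no summit in any list. The members have long transcripts, with a median of 7699 nt against 2579 nt for all coding genes. Among coding genes with a transcript of at least 5000 nt, 37.2% had summits in all 4 lists, beside 37 of the 44 members of that length. These shares describe a hand-made list and were not tested.

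**Figure D1:**
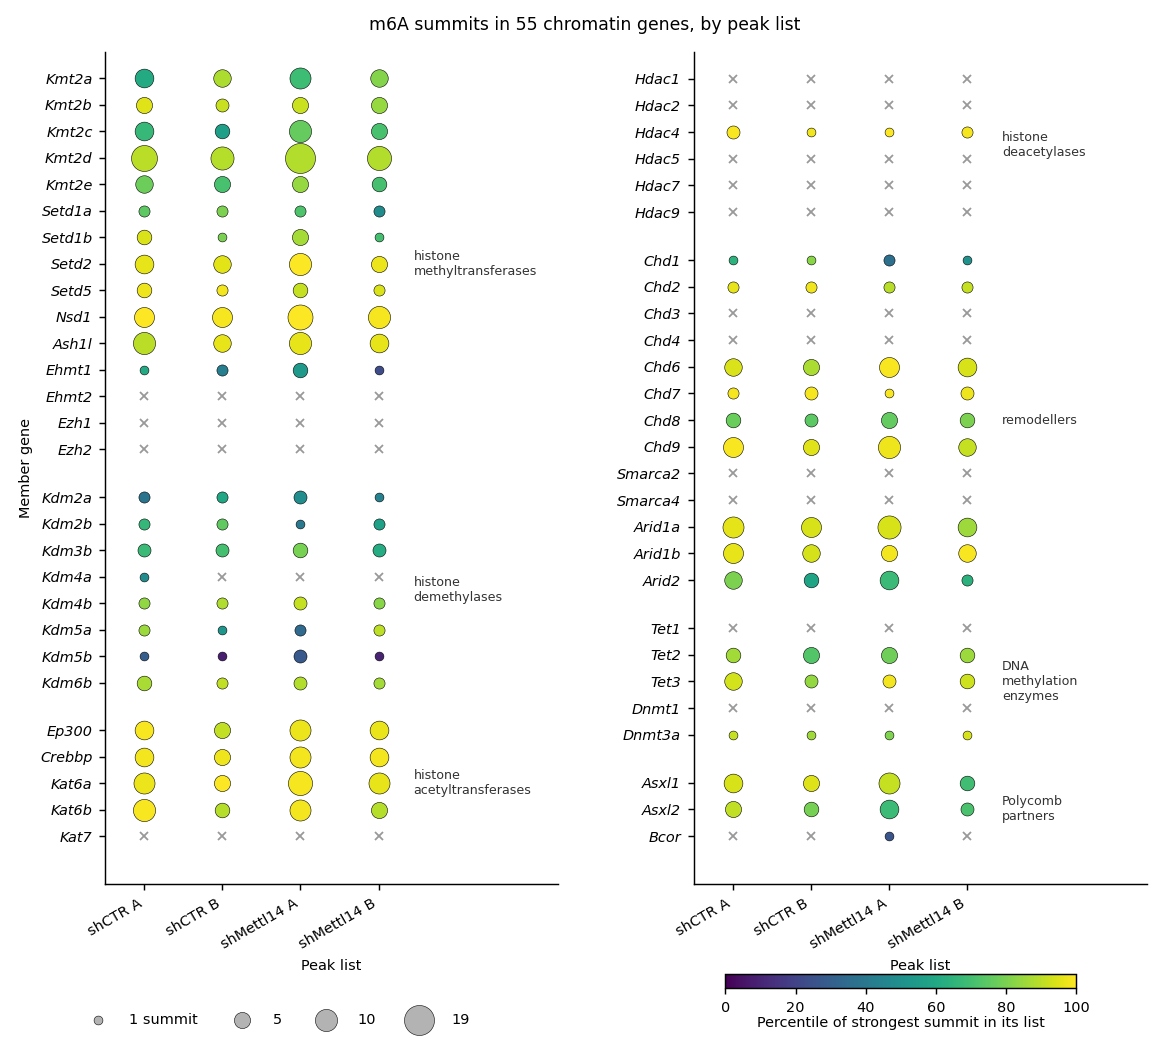
Summits in the exons of the 55 genes (rows, by class) in the 4 peak lists (columns). Circle area grows with the number of summits, colour gives the percentile of the gene's strongest summit within its list by fold enrichment, and a cross marks a gene with no summit; Kmt2d holds the most, with 14, 11, 19 and 12, and 5 of the 6 deacetylases hold none.

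The classes differed in how many members were marked and how densely. All 4 lists held summits in 12 of 15 histone methyltransferases, 7 of 8 demethylases, 4 of 5 acetyltransferases and 9 of 13 remodellers. The same held for 3 of 5 DNA methylation enzymes, 2 of 3 Polycomb partners and 1 of 6 deacetylases, beside 16.2% of all coding genes. Per kb of exon, acetyltransferases ranked first in every list, with 0.813 and 0.468 summits in shCTR A and B and 0.960 and 0.689 in shMettl14 A and B. Methyltransferases had 0.541, 0.404, 0.692 and 0.433, and remodellers had 0.427, 0.343, 0.473 and 0.352. Polycomb partners stood at 0.526, 0.395, 0.746 and 0.307, so they were between those classes in shCTR, above both in shMettl14 A and below both in shMettl14 B. Below these stood demethylases (0.305, 0.234, 0.341 and 0.234), then DNA methylation enzymes (0.248, 0.203, 0.203 and 0.203) and last deacetylases (0.126, 0.0421, 0.0421 and 0.0843), in that order in every list. The mean density of the acetyltransferases was 9.93 times that of the deacetylases, whose 7 summits were all in Hdac4. As means of the 4 lists, coding genes with a summit in any list held 0.386 per kb and members with a summit 0.510. Within each class the values of shCTR and shMettl14 overlapped or touched, and for 5 of the 7 classes the A list was above the B list in both groups.

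**Figure D2:**
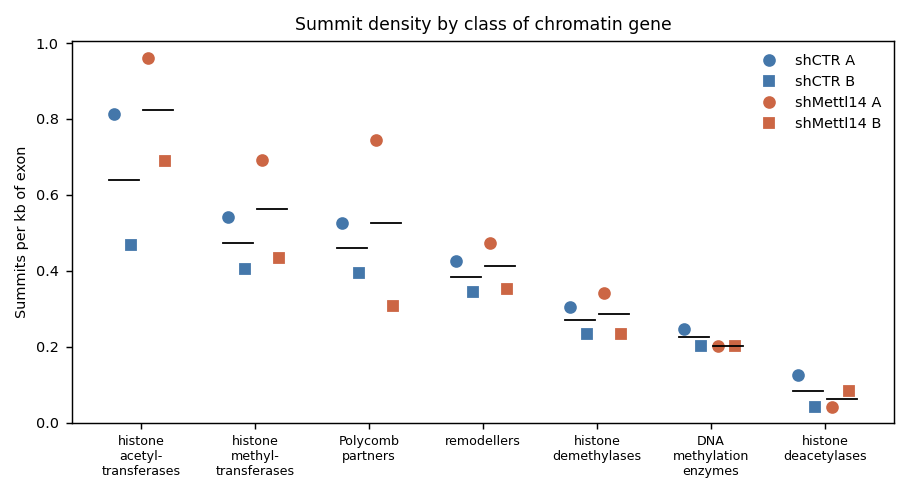
Summits per kb of exon (vertical axis) for each class (horizontal axis) in the 4 lists. Points are single lists, circles for replicate A and squares for replicate B, and lines are group means; acetyltransferases stand highest and deacetylases lowest in every list.

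Among the histone methyltransferases, the KMT2 enzymes that methylate histone H3 lysine 4 were marked throughout. Kmt2d had 14 and 11 summits in shCTR and 19 and 12 in shMettl14, the most of any member. Kmt2a had 7, 6, 9 and 6, Kmt2c 7, 4, 10 and 5, and Kmt2b 5, 3, 5 and 5. By the mean of the 4 lists, the strongest methyltransferase summits were in Nsd1, an H3 lysine 36 methyltransferase, at the 99.8th and 98.7th percentile of fold enrichment in shCTR and the 99.2nd and 98.8th in shMettl14. Its 4 values of fold enrichment over local background were 29.4, 23.8, 21.8 and 23.8, with no gap between the groups. Setd2, which trimethylates the same lysine, reached the 96.4th, 95.5th, 99.5th and 97.1st percentile, above Nsd1 in shMettl14 A, with 7, 6, 10 and 5 summits. Setd5, a SET-domain relative, reached the 97.3rd and 98.4th percentile in shCTR and the 91.3rd and 94.2nd in shMettl14, and its groups did not overlap. Ash1l, an H3 lysine 36 methyltransferase, had 10, 6, 10 and 7 summits. Ezh1 and Ezh2, the catalytic subunits of Polycomb repressive complex 2, and Ehmt2, which methylates H3 lysine 9, had none.

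Every acetyltransferase but Kat7 was among the heavily marked members. The paralogous coactivators Ep300 and Crebbp had identical numbers of summits in each list, 7, 5, 9 and 7. Crebbp peaked at the 98.4th, 97.3rd, 98.2nd and 98.2nd percentile, and Ep300 at the 98.9th, 90.9th, 96.9th and 96.5th. Kat6a and Kat6b, the catalytic subunits of the MOZ and MORF complexes, had 9, 5, 12 and 9 and 10, 4, 9 and 5 summits, and Kat6a reached the 97.1st, 99.4th, 98.6th and 96.4th percentile. Their strongest summits overlapped between the groups.

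Of the 6 deacetylases, 1 was marked in all 4 lists (16.7%), close to the 16.2% of all coding genes. Hdac1, Hdac2, Hdac5, Hdac7 and Hdac9 had no summit in any list. Hdac4, a class IIa deacetylase that represses MEF2 targets, had 3 and 1 summits in shCTR and 1 and 2 in shMettl14, all in its 3′ UTR. The strongest of them was nonetheless among the highest of its list, at the 99.1st, 97.9th, 99.3rd and 98.7th percentile, with fold enrichments of 24.3, 22.3, 22.3 and 23.3. The groups overlapped.

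Demethylases carried few summits each, with at most 4 in any gene and list. Kdm6b, which removes methyl groups from H3 lysine 27, was the strongest by the mean of the 4 lists, at the 87.0th, 90.5th, 88.4th and 86.5th percentile, with 4, 2, 3 and 2 summits in a single exon. In shMettl14 A the best summit of Kdm4b was higher, at the 91.0th percentile, and in shMettl14 B that of Kdm5a was. Kdm4b, an H3 lysine 9 demethylase, had 2, 2, 3 and 2 summits, all in the 3′ UTR, and Kdm3b had 3, 3, 4 and 3, all in exon 8. Kdm5b, an H3 lysine 4 demethylase, had the weakest best summits of the genes marked in all 4 lists, with a mean of the 18.7th percentile. It was the only member whose exons overlapped the deposited consensus intervals of one group only, shMettl14. Its region at the stop codon was present in all 4 lists, at the 29.6th and 8.37th percentile in shCTR and the 27.4th and 9.60th in shMettl14. The consensus intervals overlapped 37 members in shCTR and 38 in shMettl14, beside 17.6% and 17.4% of coding genes.

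Of the remodellers, the BAF subunits that bind DNA through an ARID domain were marked in every list, with 9, 8, 11 and 7 summits in Arid1a and 8, 6, 5 and 6 in Arid1b, whereas Smarca2 and Smarca4, the ATPases of the same complex, had none. Among the CHD helicases, Chd9 (8, 5, 10 and 6) and Chd6 (6, 5, 8 and 7) held the most, Chd7 the strongest by the mean of the 4 lists (98.6th, 98.8th, 99.2nd and 97.4th percentile, below Chd9 in shCTR A at the 99.0th), and Chd3 and Chd4, the ATPases of the NuRD complex, held none. Hdac1 and Hdac2, which NuRD also contains, had none either, as was the case for 15980 of the 21489 coding genes. Of the cytosine-modifying enzymes, the dioxygenases Tet2 (4, 5, 5 and 4) and Tet3 (6, 3, 3 and 4) and the de novo methyltransferase Dnmt3a (1 in each list, beside the stop codon) were marked, and Tet1 and the maintenance methyltransferase Dnmt1 were not. Asxl1 (7, 5, 9 and 4) and Asxl2 (5, 4, 7 and 3) were marked in every list, and Bcor had 1 summit, in shMettl14 A.

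In 10 of the 38 genes present in all lists the strongest summit was above the 90th percentile in every list, beside 10.4% of the coding genes present in all lists, a difference that was not tested. The strongest summit was lower in both shMettl14 lists than in both shCTR lists in 9 of the 38 (23.7%), beside 14.4% of coding genes, and higher in 4 (10.5%), beside 17.7%. The 9 were Kmt2d, Setd1a, Setd5, Kdm2b, Chd1, Chd2, Arid1a, Asxl1 and Asxl2, and the 4 were Kmt2c, Setd2, Ash1l and Arid1b, so the remodeller paralogs Arid1a and Arid1b stood on opposite sides. Arid1a was at the 95.9th and 93.9th percentile in shCTR and the 93.8th and 85.2nd in shMettl14, and Arid1b at the 96.2nd and 93.7th and the 98.3rd and 99.0th. Over all member summits the median percentile was 60.4 and 58.5 in shCTR and 53.4 and 57.4 in shMettl14, where 50 is the middle of each list by construction. By class, the medians were 50.8, 57.6, 48.1 and 57.2 for methyltransferases and 77.5, 67.9, 70.8 and 71.6 for acetyltransferases, in the order shCTR A, shCTR B, shMettl14 A and shMettl14 B. The Polycomb partners, that is Asxl1, Asxl2 and the single summit of Bcor, were the one class of 7 whose groups did not overlap, with medians of 72.2 and 73.7 in shCTR and 49.6 and 38.8 in shMettl14. With 2 lists a group, an exact permutation test cannot go below p = 0.333. Groups that do not overlap are thus common among classes even where there is no difference. The medians of the Polycomb partners rest almost entirely on Asxl1 and Asxl2, and a fall in that class was not tested. All class medians are given as a description.

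The position of the summits tracked the exon structure. Of 729 member summits in the chosen transcripts, 717 (98.4%) lay in an exon of at least 400 nt. Coding exons shorter than that and more than 200 nt from the stop codon made up 36.8% of the positions of the marked member transcripts but held 1.02%, 1.39%, 2.16% and 1.27% of their summits (shCTR A, shCTR B, shMettl14 A, shMettl14 B). Longer coding exons, again away from the stop codon, made up 32.3% of positions and held 79.6%, 79.9%, 79.7% and 79.0%. The 200 nt on either side of the stop codon made up 4.39% of positions and held 14.3%, 16.0%, 13.4% and 15.9% of summits. Over all marked coding transcripts the same parts held 52.1% of summits in long coding exons (20.5% of positions), 1.42% in short coding exons (25.8% of positions) and 26.5% near the stop codon (8.82% of positions), as means of the 4 lists. The chromatin genes had a larger share of summits inside long coding exons and a smaller share around the stop codon than marked genes at large, in all 4 lists and without a test, and their transcripts are also richer in long coding exons. Neither share differed between the groups beyond the spread of the replicates, with 79.7% ± 0.190 in shCTR and 79.4% ± 0.538 in shMettl14 for long coding exons (SD, n = 2, exact permutation test, two-sided p = 0.667) and 15.1% ± 1.19 and 14.6% ± 1.81 near the stop codon (p = 0.667, same exact test). The direction of both small differences turned under other settings.

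Single exons show the pattern. In Kmt2d, with 55 exons, summits fell in exon 40 (2952 nt, with 7, 4, 8 and 6), exon 35 (1982 nt, with 3, 2, 5 and 3), exon 11 (1434 nt, with 2, 2, 3 and 2), exon 49 (1141 nt, with 1 in each list), exon 32 (1815 nt) and the last exon. In Setd2, exon 3 of 4286 nt held 6, 5, 8 and 4 of its summits. In Ash1l, exon 3 of 4558 nt held 7, 4, 7 and 4. In Arid2, a subunit of the PBAF form of the remodeller, exon 15 of 2843 nt held 5, 3, 6 and 2. Of all member summits, 11 were in a coding exon under 400 nt, in 5 genes. Only exon 16 of Chd9 (256 nt) and exon 17 of Kmt2e (309 nt) had such a summit in each of the 4 lists.

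**Figure D3:**
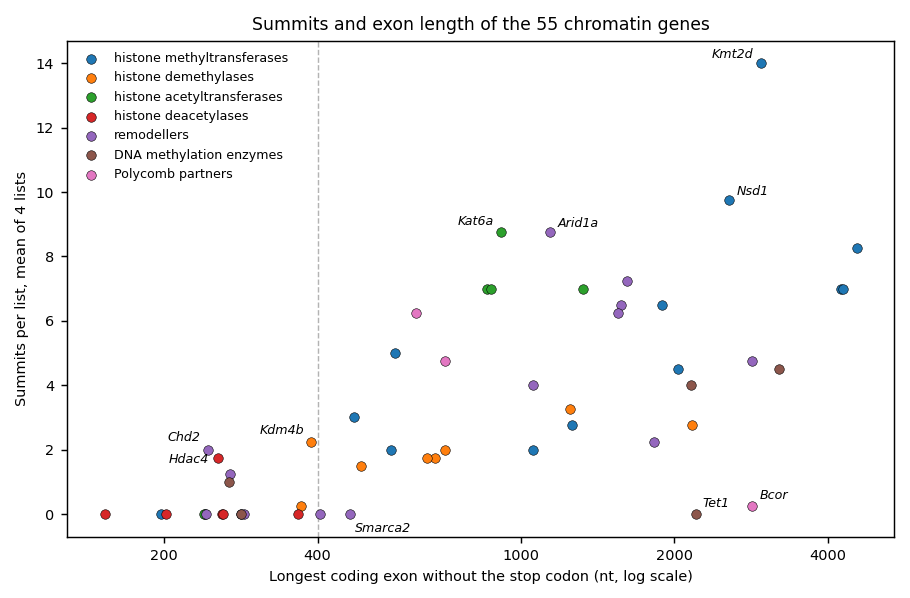
Longest coding exon that does not hold the stop codon (horizontal axis, nt, log scale) and summits per list as the mean of the 4 lists (vertical axis) for each of the 55 genes, coloured by class. The dashed line is at 400 nt; left of it 12 of 18 genes are at 0, and right of it Smarca2, Smarca4 and Tet1 are at 0 and Bcor is near it.

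Exon length went with whether a member was marked at all. For each gene the longest coding exon other than the one with the stop codon was taken, a measure chosen after the values had been seen. Of the 37 members in which it had at least 400 nt, 33 were marked in all 4 lists, beside 29.4% of all coding genes with such an exon and 47.4% of those with a transcript of at least 5000 nt. Of the 18 members in which it was shorter, 5 were marked in all 4 lists, beside 10.8% of all coding genes of that kind. All 37 members of the first group have a transcript of at least 5000 nt, but only 7 of these 18 do, and of those 7, 4 (57.1%) were marked in all 4 lists, beside 24.8% of coding genes of that length and kind. All 6 deacetylases, and 3 of the 3 unmarked methyltransferases (Ehmt2, Ezh1 and Ezh2), were in the group with short exons, with Chd3, Chd4, Kat7 and Dnmt1. The 6 members with short internal exons that did carry summits were Hdac4, Kdm4a, Kdm4b, Chd1, Chd2 and Dnmt3a, and all of their 34 summits were in the last exon. The exceptions in the other direction were Tet1 (2203 nt), Smarca2 (462 nt) and Smarca4 (405 nt), which had no summit, and Bcor (2847 nt), which had 1. Across the 55 genes, which are not independent replicates, the summits per list rose with this exon length (Spearman's rho 0.73), with transcript length (rho 0.68) and with the longest coding exon when the one holding the stop codon was included (rho 0.61), and the lengths are not independent of each other. Expression of the members was not measured in these lists, and its part in the pattern was not tested.

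Some summits of related genes lay at like distances from the stop codon. Ep300 and Crebbp have 31 exons each, and their summits were confined to exons 1, 2 and 31 in Ep300 and 2 and 31 in Crebbp. Counted from the first base of the stop codon, Ep300 had summits at -1684, -1653, -1663 and -1674 nt in shCTR A, shCTR B, shMettl14 A and shMettl14 B, and Crebbp at -1656, -1678, -1654 and -1666 nt. A second pair of summits, in exon 2, lay at -6755, -6748, -6732 and -6745 nt in Ep300 and at -6785 nt (shCTR A), -6743 nt (shMettl14 A) and -6767 nt (shMettl14 B) in Crebbp. Kat6a and Kat6b each had a summit about as far before the stop codon, at -2212, -2216, -2194 and -2216 nt in Kat6a and at -2229, -2238, -2184 and -2199 nt in Kat6b. Arid1a and Arid1b both had summits about the same distance before the stop codon, at -829, -829, -806 and -806 nt and at -832, -839, -815 and -828 nt. These positions were read from spliced transcripts aligned at the stop codon, the closest positions are given, and the agreement was not tested. Asxl1 had its summits in its last 2 exons, and Asxl2 in the last exon alone.

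**Figure D4:**
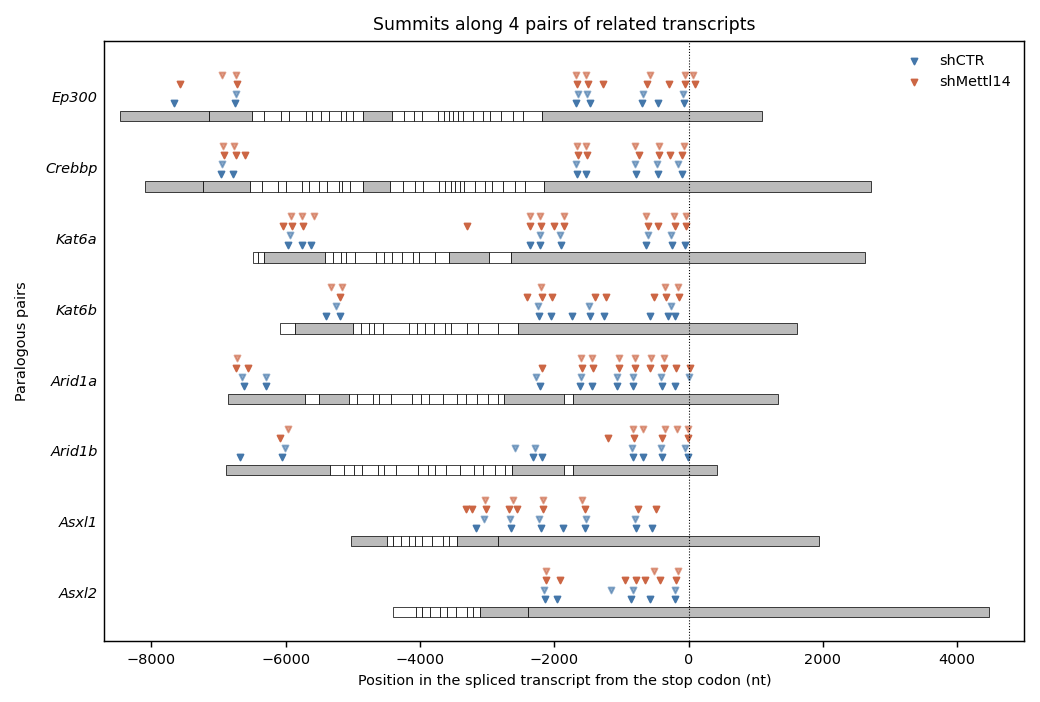
Summits (triangles) along the spliced transcripts of 4 paralogous pairs, with position in nt from the stop codon (horizontal axis), blue for shCTR and orange for shMettl14, fainter for replicate B. Boxes are exons, filled where they have at least 400 nt; the triangles stand over filled boxes in all 8 transcripts, and Ep300 and Crebbp each have a summit between -1684 and -1653 nt or -1678 and -1654 nt in every list.

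A further 65 chromatin genes from the same classes were taken as a comparison list. Of these 21 (32.3%) were marked in all 4 lists, beside 16.2% of all coding genes, and 38 in none. Those with the most summits were Srcap (7, 8, 9 and 5), the ATPase that deposits H2A.Z, Kmt5b (4, 4, 7 and 6), an H4 lysine methyltransferase, Bptf (5, 3, 8 and 2), a subunit of NURF, and Bcorl1 (4, 5, 5 and 3), a relative of Bcor. By class, summits in all 4 lists were found in 6 of 13 further methyltransferases, 3 of 11 demethylases, 3 of 7 acetyltransferases, 7 of 19 remodellers, 2 of 8 Polycomb partners, none of 2 DNA methylation enzymes and none of 5 deacetylases. The further acetyltransferases marked in all lists (Kat2a, Ncoa1 and Ncoa3) had 1 or 2 summits a list, so the high density of the acetyltransferases above was that of Ep300, Crebbp, Kat6a and Kat6b.

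The effect of the Mettl14 hairpin on these genes was compared in 3 ways. The members held 197 and 144 summits in shCTR and 232 and 157 in shMettl14, a mean of 170.5 ± 37.5 and 194.5 ± 53.0 (SD, n = 2, exact permutation test, two-sided p = 0.667). The groups overlapped, and as a share of all exonic summits the members were at 2.03% and 1.86% in shCTR and 1.92% and 1.89% in shMettl14. The count followed the length of the lists, and its direction turned when equal numbers of summits were taken (a difference of -4.5) or when shMettl14 A (-13.5) or shCTR B (-2.5) was left out.

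The second comparison asked which regions were present in one group only. Overlapping intervals of the 4 lists were merged into regions, and 133 regions held a summit in member exons, of which 89 (66.9%) were present in all 4 lists, beside 51.0% of all exonic regions. One member region was in both shCTR lists and neither shMettl14 list, in exon 18 of Arid1b (chr17:5336786-5337171), or 0.752% of the member regions, beside 1.62% of all 9070 exonic regions. It was weak, at the 9.69th and 14.5th percentile with 10 and 11 fragments. No member region was in both shMettl14 lists only, beside 1.6% of exonic regions. Of 21 member regions found in a single list, 10 were in shCTR A and 10 in shMettl14 A, and over all 3307 such regions 1035 and 1366 were in these lists. The count of group-specific member regions was 3 without shCTR A, 13 without shCTR B, 9 without shMettl14 A and 12 without shMettl14 B. With a list left out, 1 list alone stands for its group. That loosens the rule, so the higher counts say nothing about the members.

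The last comparison tested the rank of fold enrichment of the 89 member regions within the 4929 regions common to all lists, converted to normal scores and fitted with limma over all 4929. Ranks within each list cannot show a fall shared by all regions, and regions absent from any list were left out. The percentiles given above share the first of these limits. No member region passed an adjusted p of 0.05, beside 0.0% of all regions, and the smallest adjusted p in either set was 0.796. Before adjustment, 5 member regions (5.62%) had a p under 0.05, beside 4.93% of all regions. Of the 89, 41 were higher and 48 lower in shMettl14, with a median change of -0.07 against 0.00 for all regions, and a median standard error of 0.50 for a single region. By Fisher's exact test on recovered fragments 2 member regions (2.25%) had an unadjusted p under 0.05, beside 2.56% of all regions, and none passed after adjustment.

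The 5 regions are given for their values and not as changes. A region in exon 3 of Kmt2a (chr9:44847526-44848015) was at the 1.10th and 0.774th percentile in shCTR and the 25.0th and 13.0th in shMettl14 (change 1.49, SE 0.49, limma adjusted p = 0.796). In exon 27 of the same gene (chr9:44820190-44820509) the percentiles were 30.8 and 19.4 in shCTR and 68.5 and 57.4 in shMettl14. A second 3′ UTR region of Kdm4b (chr17:56402350-56402778) stood at 21.4 and 35.3 against 91.0 and 60.6, from 7, 9, 17 and 12 fragments. A region in exon 18 of Kat6a (chr8:22938159-22938845) was at 48.1 and 12.4 against 76.5 and 70.8. In the last exon of Asxl1 (chr2:153399245-153400718), which holds the site shown above, the percentiles were 93.9 and 94.7 in shCTR and 79.4 and 56.1 in shMettl14 (change -1.27, SE 0.50, limma adjusted p = 0.927), with 27, 33, 22 and 18 fragments. Of the 5, 4 were higher and 1 lower in shMettl14, beside 119 higher and 124 lower of the 243 regions at that threshold. By class, the median change was 0.07 for the methyltransferases (38 regions), -0.13 for the demethylases (9), -0.08 for the acetyltransferases (12), -0.10 for the remodellers (20), 0.00 for the DNA methylation enzymes (5) and -0.69 for the Polycomb partners (4), and the single deacetylase region, in Hdac4, changed by 0.10.

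**Figure D5:**
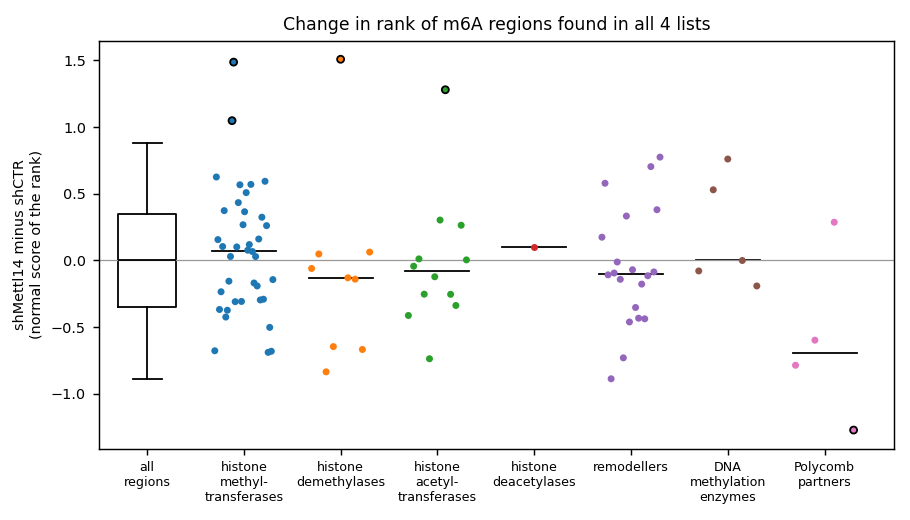
Change in the normal score of the rank of fold enrichment, shMettl14 minus shCTR (vertical axis), for the 89 member regions by class and for all 4929 regions. Points are regions, outlined where the unadjusted p was under 0.05, and lines are medians; the box spans the quartiles of all regions with whiskers from the 5th to the 95th percentile, and no member region passed the adjusted threshold.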

How the data were processed

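The series held 8 libraries (IP and input, shCTR and shMettl14, replicates A and B). The authors aligned reads to mm10 (STAR), filtered them (SAMtools) and called peaks of each IP against its input (MACS2; versions and options are not given in the sources used here). The deposited peak lists give, per summit, the fold enrichment as a ratio over local background and the deposited −log10 p and −log10 q values; the 2 deposited consensus files hold intervals shared by the replicates. Input values were not analysed here. Peaks on all 21 chromosomes lay within the lengths of GRCm38.

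Summits were assigned to genes by any annotated exon, and positions used 1 complete coding transcript per gene. Fragments at each summit were recovered from fold enrichment and p (largest error 0.000151 in −log10 p). Regions were intervals of the 4 lists merged at 1 bp or more. Ranks of fold enrichment in regions common to all lists were turned into normal scores and fitted with limma 3.58.1 in R 4.3.3, without a block, Benjamini-Hochberg adjusted over all regions; the procedure was tested on simulated data. Groups followed the titles, and counts and shares were compared by exact permutation.

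The members, classes, comparison list and named-gene rule were chosen with earlier results of these data known. Named genes were the 3 strongest marked in all lists per class, those with no summit, those marked in one group only, those with a region at an unadjusted p under 0.05 and the 5 with most summits; others are named to complete a family, a small count or an exon description. Python 3.11.15, scipy 1.17.1 and pandas 2.3.3 were used. The number of lists limits the precision.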

Additional observations from a re-analysis of the deposited data

How the results depend on the processing

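The number of members marked in all lists stayed between 36 and 38 under all 8 alternatives, and the ratio of the densest to the sparsest class between 6.78 and 12.6. No member region passed the adjusted threshold in any of 12 alternative fits. With the letter as a replicate block the count was also 0, and 5 member regions had an unadjusted p under 0.05, as without it. Replicate differences of the 2 groups correlated weakly (r = 0.08 over the common regions), and the labels tie A to A in no other way.

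The direction of the group difference in member summits (24 more in shMettl14) turned with equal numbers of top summits (-4.5) and with interval overlap (-3.5), and ranged from -13.5 to 61.5 with a list left out. The group difference near the stop codon (-0.486 percentage points) turned with equal numbers (0.477), −log10 q of at least 5 (0.631) and windows of 100 nt (1.44) and 400 nt (1.09), and ranged from -1.77 to 0.795 with a list left out. That in long coding exons (-0.365 points) turned with exons of at least 200 nt (0.145) and 1000 nt (0.611), was -1.34 with equal numbers, and ranged from -0.746 to 0.0149 with a list left out. The causes were not tested. Members minus all genes kept its direction, at -11.7 points near the stop codon (-5.83 and -21.7 with windows of 100 and 400 nt) and 27.4 points in long coding exons (28.5 at −log10 q of at least 5, 23.2 with exons of at least 1000 nt).

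Group-specific member regions numbered 4 with equal numbers and 3 at −log10 q of at least 5, and 3 to 13 with a list left out. Regions at an unadjusted p under 0.05 numbered 3 at −log10 q of at least 5, 3 by rank of recovered fragments and 2 by Fisher's exact test, and 3 to 4 with a list left out. The median change of member regions turned only with the rank of recovered fragments (0.0371). The lists had a median of 13 to 16 fragments at a summit, with 2 lists a group and a median standard error of 0.50 for a single member region. The smallest change of a single region that could be detected was not estimated, and modest changes may have been missed.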
